A study of Mus musculus with 18 samples.

Results

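The responses of 2 mouse cancer cell lines to sildenafil were set against each other gene by gene: LLC, a Lewis lung carcinoma line treated for 48 h, and 4T1, a breast carcinoma line treated for 24 h. For every gene the quantity tested was the response in LLC (sildenafil over control) minus the response in 4T1, with weight on genes that moved in opposite directions. The comparison used 12 of the 18 libraries of the series: 3 control and 3 sildenafil libraries of each line. All 15686 genes that passed the count filter were members. Control cells received the solvent DMSO and treated cells received 100 µM sildenafil citrate, an inhibitor of the cGMP-degrading phosphodiesterase PDE5. Both lines are labelled wild type (W.T) and were grown in culture, LLC in DMEM and 4T1 in RPMI 1640. The line, the treatment time, the medium and the composition of the libraries differed together and cannot be told apart. The 6 libraries of MC38, a colon adenocarcinoma line treated with the same dose for 24 h in DMEM, have controls of their own and are set beside the results. The labels do not state whether replicate libraries stem from separate cultures. If they do not, the spread behind the p-values is technical only.

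Library totals ran from 26348654 to 32129771 expected counts in LLC and from 41070021 to 61600646 in 4T1. Protein-coding genes held 87.6% to 89.72% of the counts in LLC and 97.08% to 97.31% in 4T1. Gm26917, a lincRNA with sequence like ribosomal RNA, took 2.965%, 2.155% and 0.9668% of the counts in the LLC controls and 1.388%, 0.7162% and 0.5883% in the LLC sildenafil libraries. In 4T1 its share was at most 0.02845%. LLC control replicate 3 stood apart from the other LLC controls: the chi-square per degree of freedom of the counts was 53.19 and 44.69 against replicates 1 and 2, and 11.46 between those. Results that rest on these libraries are given below also without that replicate, or with the Gm26917 level as a covariate. Of 14 mammary epithelial markers 8 were over 1 CPM (counts scaled by TMM factors to a common library size) in 4T1, among them Gata3 at 57.5 to 81.6 CPM, while Csn2, Wap and Elf5 were at 0. In LLC 5 of the 14 were over 1 CPM too, among them Esr1 at 11.46 to 15.75 CPM, against 12.1 to 15.8 CPM in 4T1. Of 12 lung epithelial markers 3 (Abca3, Napsa and Hopx) were over 1 CPM in LLC, while Nkx2-1 and Sftpc were at 0. Abca3 stood at 58.4 to 80.2 CPM in LLC and higher in 4T1, at 81.45 to 111.9 CPM, so it does not mark LLC off from 4T1. The epithelial genes Epcam and Krt18 were at 0 in all LLC libraries and Krt8 stood at 191 to 243 CPM, where in 4T1 Epcam stood at 54.8 to 68.98 CPM. The pan-leukocyte gene Ptprc did not exceed 0.122 CPM in any of the 12 libraries. A set of 14 nuclear-retained or ribosomal-RNA-like transcripts together held 46350 to 69980 CPM in LLC and 1320 to 2232 CPM in 4T1. Of these Rn7sk stood at 17100 to 30210 CPM in LLC and at most 7.183 CPM in 4T1. Rpph1 and Malat1 were also far higher in LLC, while Lars2 and Kcnq1ot1 were higher in 4T1. The part of library composition in the response differences was not tested.

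Some of the gene lists described below hold programs whose control is well known. Genes for copying DNA are switched on at the entry to S phase by E2F factors, which bind short sites close to the start of transcription. Genes for glucose use, mitophagy and oxygen sensing are raised by hypoxia-inducible factors, which bind short sites that often hold ACGTG. Enzymes of cholesterol synthesis are raised by SREBP factors when sterol in the endoplasmic reticulum is low, and MYC drives the genes that build ribosomes.

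Promoters of 4 genes are shown as examples of the motifs. They were picked after the motif search, among members of the S phase and hypoxia lists that moved in opposite directions, because they hold the motif of their list, which most such promoters of the S phase list do not. Each is the run of 250 bases before the start site, read 5′ to 3′ on the strand of the gene, from RefSeq (GRCm38.p6). Mcm5 and Mcm6 encode subunits of the replicative helicase, and both rose in LLC and fell in 4T1. Capitals mark an E2F motif (TTTGGCGC, or GCGCCAAA where it lies on the other strand) and, in Mcm5, a cAMP response element (TGACGTCA). Mcm5 was read from chr8:75109259-75109508 on the plus strand and Mcm6 from chr1:128359706-128359955 on the minus strand.
Mcm5: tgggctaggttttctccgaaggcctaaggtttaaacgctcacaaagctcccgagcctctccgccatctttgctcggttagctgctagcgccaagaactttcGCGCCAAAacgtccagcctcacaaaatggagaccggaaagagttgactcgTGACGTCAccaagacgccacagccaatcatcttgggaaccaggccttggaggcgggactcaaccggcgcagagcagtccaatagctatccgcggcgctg
Mcm6: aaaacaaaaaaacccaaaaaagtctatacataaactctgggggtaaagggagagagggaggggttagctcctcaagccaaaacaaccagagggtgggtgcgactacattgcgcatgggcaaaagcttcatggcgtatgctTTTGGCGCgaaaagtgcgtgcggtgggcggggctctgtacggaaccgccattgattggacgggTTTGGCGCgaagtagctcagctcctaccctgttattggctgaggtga
Bnip3, a mitophagy receptor, and Egln3, an oxygen-sensing prolyl hydroxylase, both fell in LLC and rose in 4T1. Capitals mark the hypoxia core ACGTG, which in Bnip3 lies on both strands at the same place. Bnip3 was read from chr7:138909507-138909756 and Egln3 from chr12:54203875-54204124, both on the minus strand.
Bnip3: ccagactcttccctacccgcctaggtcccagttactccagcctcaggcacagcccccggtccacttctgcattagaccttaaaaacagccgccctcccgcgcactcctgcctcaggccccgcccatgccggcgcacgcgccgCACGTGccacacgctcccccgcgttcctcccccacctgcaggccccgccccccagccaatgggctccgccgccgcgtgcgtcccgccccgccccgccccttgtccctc
Egln3: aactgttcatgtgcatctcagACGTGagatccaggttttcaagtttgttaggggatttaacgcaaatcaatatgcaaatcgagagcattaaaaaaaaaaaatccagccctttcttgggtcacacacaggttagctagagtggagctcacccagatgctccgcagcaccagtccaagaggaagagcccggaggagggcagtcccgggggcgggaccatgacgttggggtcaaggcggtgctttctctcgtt
The E2F motifs began at position -149 in Mcm5 and at -110 and -47 in Mcm6, counted from the start site. The hypoxia cores began at -108 and -107 in Bnip3 and at -229 in Egln3.

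Promoters were found for 10427 of 15670 gene symbols tested, 13342 promoters in all, and motifs were searched on both strands. Either E2F motif (TTTCCCGC or TTTGGCGC) was in 2.37% of them, in 23 of 595 (3.87%) for genes up in LLC and down in 4T1, and in 11 of 507 for genes down in LLC and up in 4T1. ACGTG was in 21.3% of all promoters, in 22.7% of the first group and in 24.7% of the second. In the list of S phase genes described below, E2F motifs were in 6 of 44 promoters (13.6%), and in 4 of 24 (16.7%) for members that moved in opposite directions. In the list of glycolysis and hypoxia targets, ACGTG was in 22 of 46 promoters (47.8%), and in 8 of 16 (50%) for members that moved in opposite directions. ACGTG was also in 12 of the 44 S phase promoters (27.3%), and in 8 of the 24 (33.3%) for members that moved in opposite directions. E2F motifs were in 0 of the 46 promoters of the glycolysis and hypoxia list. Members that moved in opposite directions hold 24 of the 44 and 16 of the 46 promoters, so these shares set a part beside its own whole. The counts are small, and no conclusion is drawn from the pairs of shares. A match is a run of letters and not a measured binding site.

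The response differed between the lines for 6460 genes (41.2% of 15686; edgeR quasi-likelihood test, Benjamini-Hochberg adjusted p under 0.05, which is the call used throughout). It was higher in LLC for 3299 genes (21%) and lower in LLC for 3161 (20.2%). A called difference of at least 2-fold was found for 982 genes (6.26%), of which 755 were lower in LLC. Within the lines 4860 genes (31%) changed in LLC and 8449 (53.9%) in 4T1, and the median size of a log2 response was 0.184 in LLC and 0.298 in 4T1. Among the genes with a called difference, 3424 were called in 4T1 and not in LLC, and 870 in LLC and not in 4T1. A further 803 changed in the same direction in both lines and more in 4T1, and 126 in the same direction and more in LLC.

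Of 3128 genes called in both lines, 1171 rose in both, 922 fell in both and 1035 (33.1% of these, 6.6% of all genes tested) moved in opposite directions. These were 573 genes up in LLC and down in 4T1 (3.65% of the genes tested) and 462 genes down in LLC and up in 4T1 (2.95%), all with a called difference. Changes in the first group were small: the median log2 response was 0.227 in LLC and -0.297 in 4T1, and 12 genes passed 1.5-fold in both lines. The second group had medians of -0.323 and 0.39, and 67 genes passed 1.5-fold in both. A level of at least 5 CPM in both lines was reached by 94.9% of the first group and 77.5% of the second. Of the 12, only Arf2, Gpr155 and Amotl2 met the rule for genes named by rank below. In the second group the 10th gene by that rule, Bnip3, was already near 1.5-fold in LLC (-0.594). Control and sildenafil libraries did not overlap in either line for 516 of the 573 and 398 of the 462 genes, where 5.2% and 4.39% of all genes tested were without overlap in those directions. Within LLC alone 19.7% of all genes had every sildenafil library above the controls, and 19.7% had every one below. Across genes with at least 5 CPM in both lines (9094 genes, which are not independent replicates), the responses had a Pearson correlation of 0.268.

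**Figure D1:**
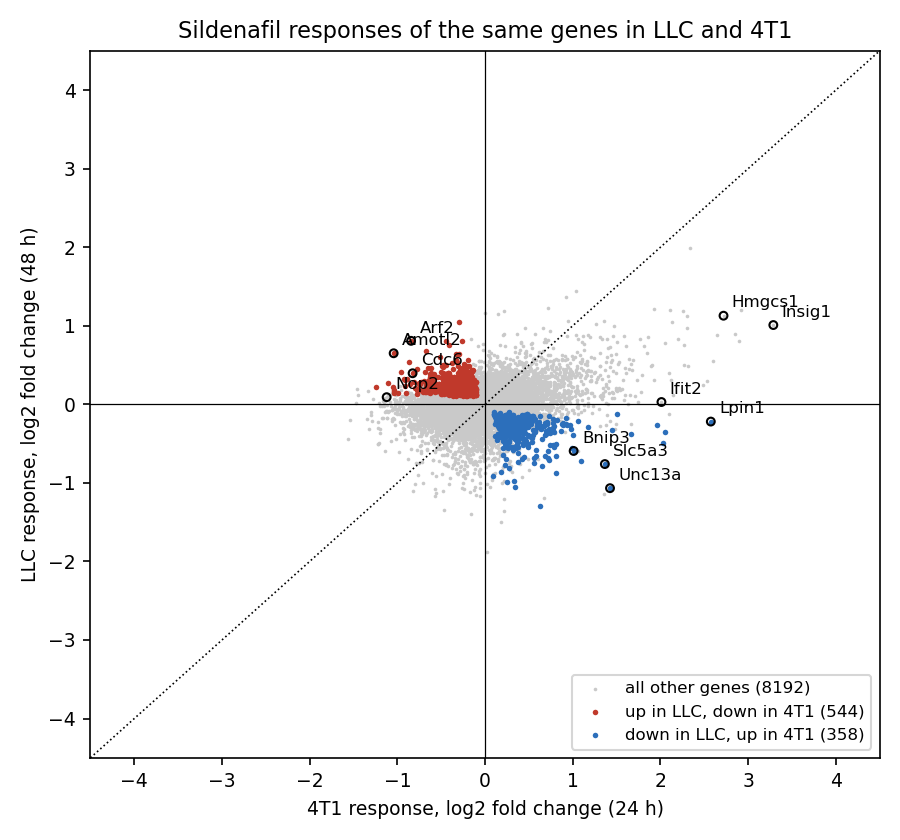
Log2 fold change of sildenafil over control in 4T1 (24 h) and in LLC (48 h), 1 point per gene with at least 5 CPM in both lines, from 3 control and 3 sildenafil libraries a line. Colours mark 544 genes up in LLC and down in 4T1, 358 genes down in LLC and up in 4T1 and 8192 other genes, and the median size of the response over these genes is 0.137 in LLC and 0.247 in 4T1.

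The counts of genes that moved in opposite directions depended on the LLC libraries. Without LLC control replicate 3 there were 907 up in LLC and down in 4T1, which included 555 of the 573, and 670 in the reverse direction, which included 419 of the 462. Without LLC sildenafil replicate 3 the counts were 369 and 292, and without LLC sildenafil replicate 2 the reverse direction had 303. With the Gm26917 level as a covariate they were 225 and 224. Where the calls within a line came from a fit of its own 6 libraries, they were 486 and 341, which included 447 of the 573 and 302 of the 462. Of the genes named below as moving in opposite directions, Ptgs2, Fyco1, Lpin1, Tyms, Bcl2l1, Rrm2, G6pdx, Bbc3, Tsr1 and Atg13 were not called in LLC in that fit (edgeR adjusted p from 0.0599 for Ptgs2 to 0.117 for Atg13). A share of 0.474 of that covariate's variance within LLC, and 0.967 within 4T1, went with treatment, so the covariate and the treatment share information.

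In MC38 19.9% of the genes rose and 18.7% fell. Of the genes up in LLC and down in 4T1, 567 were tested in MC38, where 152 (26.8%) fell as in 4T1 and 93 (16.4%) rose as in LLC. Of the genes down in LLC and up in 4T1, 427 were tested, and 153 (35.8%) rose as in 4T1 and 32 (7.49%) fell as in LLC. In both groups the largest share, 322 and 242 genes, was not called in MC38.

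The rule that named 10 genes in each direction required opposite movement and no overlap of control and sildenafil libraries in either line, so neither is a finding for these 20. Among the 10 genes named by this rule as up in LLC and down in 4T1, Arf2 had the largest response shared by both lines. Arf2 (chr11:103966739-103985337) encodes a small GTPase of vesicle traffic. It went from 26.5, 27.5 and 29.3 CPM to 47.5, 48.9 and 49.6 CPM in LLC and from 38.4, 39.4 and 38.5 CPM to 21.5, 21.5 and 21.9 CPM in 4T1. LLC lay below 4T1 in the controls and above it after sildenafil, and the difference was 1.65 ± 0.0651 on the log2 scale (SE, adjusted p = 3.57e-11). Gpr155, a lysosomal membrane protein that senses cholesterol, went from 5.91, 6.92 and 6.56 CPM to 9.73, 10.8 and 10.4 CPM in LLC and from 6.84, 7.08 and 6.25 CPM to 4.07, 4.33 and 4.23 CPM in 4T1. Its control levels were close in the lines, and the difference was 1.35 ± 0.123 (adjusted p = 2.79e-07).

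Amotl2 (chr9:102716672-102733418), an angiomotin that binds the growth coactivator YAP, had the largest difference of the 10 genes named by rank in this direction. It went from 17.3, 20.1 and 19.2 CPM to 29.6, 30.01 and 29.2 CPM in LLC and from 170.4, 171 and 171 CPM to 83.6, 82.3 and 82.6 CPM in 4T1. The control level was far higher in 4T1, and the difference was 1.69 ± 0.0657 (adjusted p = 3.57e-11). Cdc42ep1, an effector of the cytoskeletal GTPase Cdc42, had the same shape on a smaller scale. It stood at 19.00 to 20.6 CPM in LLC controls and 26.7 to 29.2 CPM after sildenafil, and at 274 to 287 CPM and 194 to 212 CPM in 4T1. The other genes named by rank were Tsr2, a chaperone of a ribosomal protein (difference 1.40 ± 0.0848), Sh3bp5 (1.12 ± 0.0888), the mitochondrial fusion protein Miga2 (1.11 ± 0.0813), Pdrg1 (1.08 ± 0.0866), Dnajc25 (0.97 ± 0.115) and Slc35b1, a nucleotide exchanger of the endoplasmic reticulum (0.97 ± 0.0863).

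In the reverse direction Unc13a had the largest difference of the 10 genes named by rank. Unc13a (chr8:71624417-71671757), a vesicle priming protein best known from synapses, went from 7.102, 7.15 and 6.36 CPM to 3.62, 2.87 and 3.31 CPM in LLC and from 7.68, 5.43 and 5.13 CPM to 16.5, 16.7 and 15.9 CPM in 4T1. The difference was -2.49 ± 0.187 (adjusted p = 5.54e-08). In MC38 it rose, as in 4T1, by 1.499. Plcg2, a phospholipase C of receptor signalling, went from 13.2, 15.3 and 13.8 CPM to 7.96, 8.41 and 6.82 CPM in LLC and from 74.4, 72.4 and 75.96 CPM to 120.4, 124 and 147 CPM in 4T1. Its difference was -1.68 ± 0.122.

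Slc5a3, the sodium-coupled transporter of myo-inositol, was abundant in LLC. It went from 329, 324 and 266 CPM to 183, 178 and 181 CPM in LLC and from 24.5, 22.1 and 23.2 CPM to 57.4, 56.8 and 65.7 CPM in 4T1. The levels of the lines were closer after treatment, with a difference of -2.13 ± 0.112 (adjusted p = 1.26e-08). Also named by rank were the mucin-type glycosyltransferase Galnt15 (-1.82 ± 0.138), Fyco1, an adaptor that moves autophagosomes (-1.47 ± 0.2098), the microtubule-associated Map1a (-1.44 ± 0.176) and the kinesin Kif21b (-1.34 ± 0.141). Per1, Egln3 and Bnip3 complete the 10 and are described with their lists. With the Gm26917 covariate the differences of Fyco1, Map1a and Per1 were -0.8283, -0.8677 and -0.7955, and all 3 were still called.

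**Figure D2:**
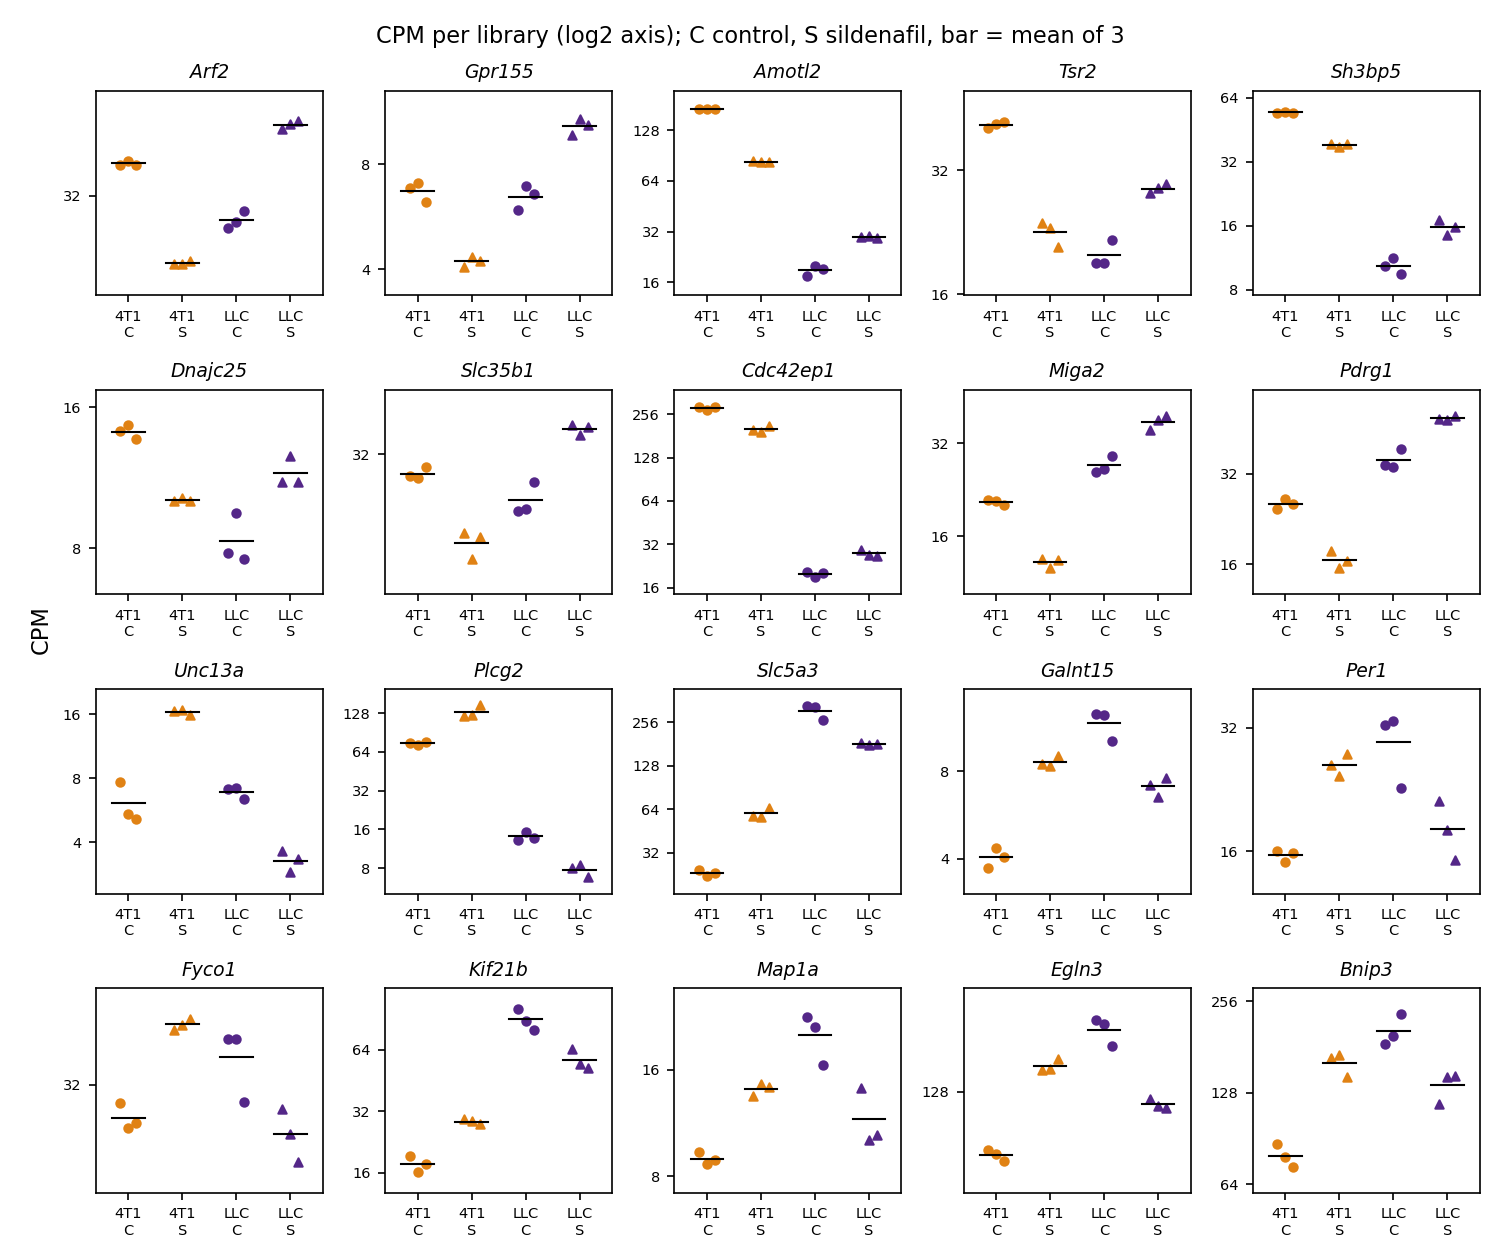
CPM on a log2 axis for the 20 genes named by rank, 1 point per library, 3 libraries a group, with a bar at the mean of each group (4T1 control and sildenafil at 24 h, LLC control and sildenafil at 48 h). The first 10 genes rise in LLC and fall in 4T1 and the other 10 do the reverse, and the naming rule required these directions and the lack of overlap between control and sildenafil points of a line.

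Genes of DNA replication and S phase had the largest share of members moving in opposite directions among the 39 lists examined. Of 46 tested members 44 had a higher response in LLC and none a lower one, where 21% and 20.2% of all genes did. In 4T1 41 members fell (26.6% of all genes) and none rose. In LLC 29 rose (15.5% of all genes) and 3, the polymerase subunits Pole, Pola2 and Pold2, fell. Opposite movement, up in LLC and down in 4T1, was called for 26 members, 56.5% of the list against 3.65% of all genes. Of the 26, 24 had no overlap of libraries in either line, as had 516 of all 573 genes called this way. The call favours such a lack of overlap, so it is no added support. The median log2 response was 0.152 in LLC and -0.366 in 4T1, against -0.006 and 0 over all genes.

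Cdc6, which loads the helicase at origins of replication, had the largest difference of the list. It went from 54.2, 56.8 and 59.6 CPM to 71.7, 75.8 and 76.8 CPM in LLC and from 35.5, 36.7 and 36.1 CPM to 21.8, 20.3 and 18.9 CPM in 4T1. Every treated library lay outside the controls of its line, and the difference was 1.22 ± 0.0751 (adjusted p = 5.3e-09). All 6 subunits of the helicase core, Mcm2 to Mcm7, had a higher response in LLC and fell in 4T1, with 4T1 responses of -0.55 to -0.40. In LLC 5 of the 6 rose and Mcm2 was not called, with responses of 0.12 to 0.17. Mcm6, whose promoter is shown above, went from 491, 483 and 494 CPM to 533, 538 and 542 CPM in LLC and from 320.2, 331 and 321 CPM to 251, 256 and 224 CPM in 4T1. Mcm5 went from 188, 191 and 206 CPM to 208, 225 and 225 CPM in LLC and from 277, 287 and 283 CPM to 203, 204 and 173 CPM in 4T1. Neither gene had overlapping groups in either line.

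Enzymes that supply nucleotides had the same pattern. All 5 fell in 4T1, all 5 had a higher response in LLC, and 4 rose there. Thymidine kinase Tk1 went from 166, 153 and 168 CPM to 181, 185 and 186 CPM in LLC and from 106, 109.6 and 108 CPM to 79.7, 76.2 and 63.5 CPM in 4T1, without overlap. Its difference was 0.74 ± 0.0902. The thymidylate synthase Tyms had responses of 0.16 ± 0.05702 in LLC and -0.57 ± 0.0558 in 4T1. The small subunit of ribonucleotide reductase, Rrm2, had 0.14 ± 0.0514 and -0.63 ± 0.0523. Its large subunit Rrm1 was not called in LLC (0.04).

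The 4 genes for histone messages and chromatin copying (Chaf1a, Chaf1b, Slbp, Uhrf1) all moved in opposite directions, with LLC responses of 0.20 to 0.27 and 4T1 responses of -0.41 to -0.19. Of the E2F factors and E cyclins, E2f2, Ccne1 and Ccne2 moved in opposite directions, and E2f1 fell in 4T1 and was not called in LLC (0.09). Among 10 genes of origin licensing and helicase activation, 9 had a higher response in LLC and 4 moved in opposite directions: Cdc6, Mcm10, Gins2 and Orc6. Polymerases and their cofactors were the most mixed: 16 of 17 had a higher response in LLC and 14 fell in 4T1, while in LLC 8 rose and 3 fell. Rpa2, a subunit of the single-strand binding protein, had responses of 0.30 ± 0.0475 in LLC and -0.65 ± 0.0491 in 4T1. Pola1, the catalytic subunit of polymerase alpha, was not called in LLC (0.03 ± 0.0363) and went from 87.9, 86.2 and 88.6 CPM to 57.99, 57.6 and 56.4 CPM in 4T1.

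Of 30 genes of mitosis 1, the checkpoint gene Mad2l1, moved in opposite directions, a share near the 3.65% of all genes. The response was higher in LLC for 15 of the 30 (21% of all genes), while 20 fell in 4T1 (26.6%) and 7 in LLC (15.5%). In MC38 3 of the 46 S phase members rose and 6 fell, with a median of -0.005, and of the 26 none rose and 4 fell. The number of S phase members that moved in opposite directions depended on the LLC libraries. It was 32 without LLC control replicate 3, 15 without LLC control replicate 1, control replicate 2 or sildenafil replicate 2, and 13 without LLC sildenafil replicate 3. With the Gm26917 covariate it was 8, and 31 members had a higher response in LLC. Leaving out any 1 of the 12 libraries left 43 to 45 members with a higher response in LLC.

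**Figure D3:**
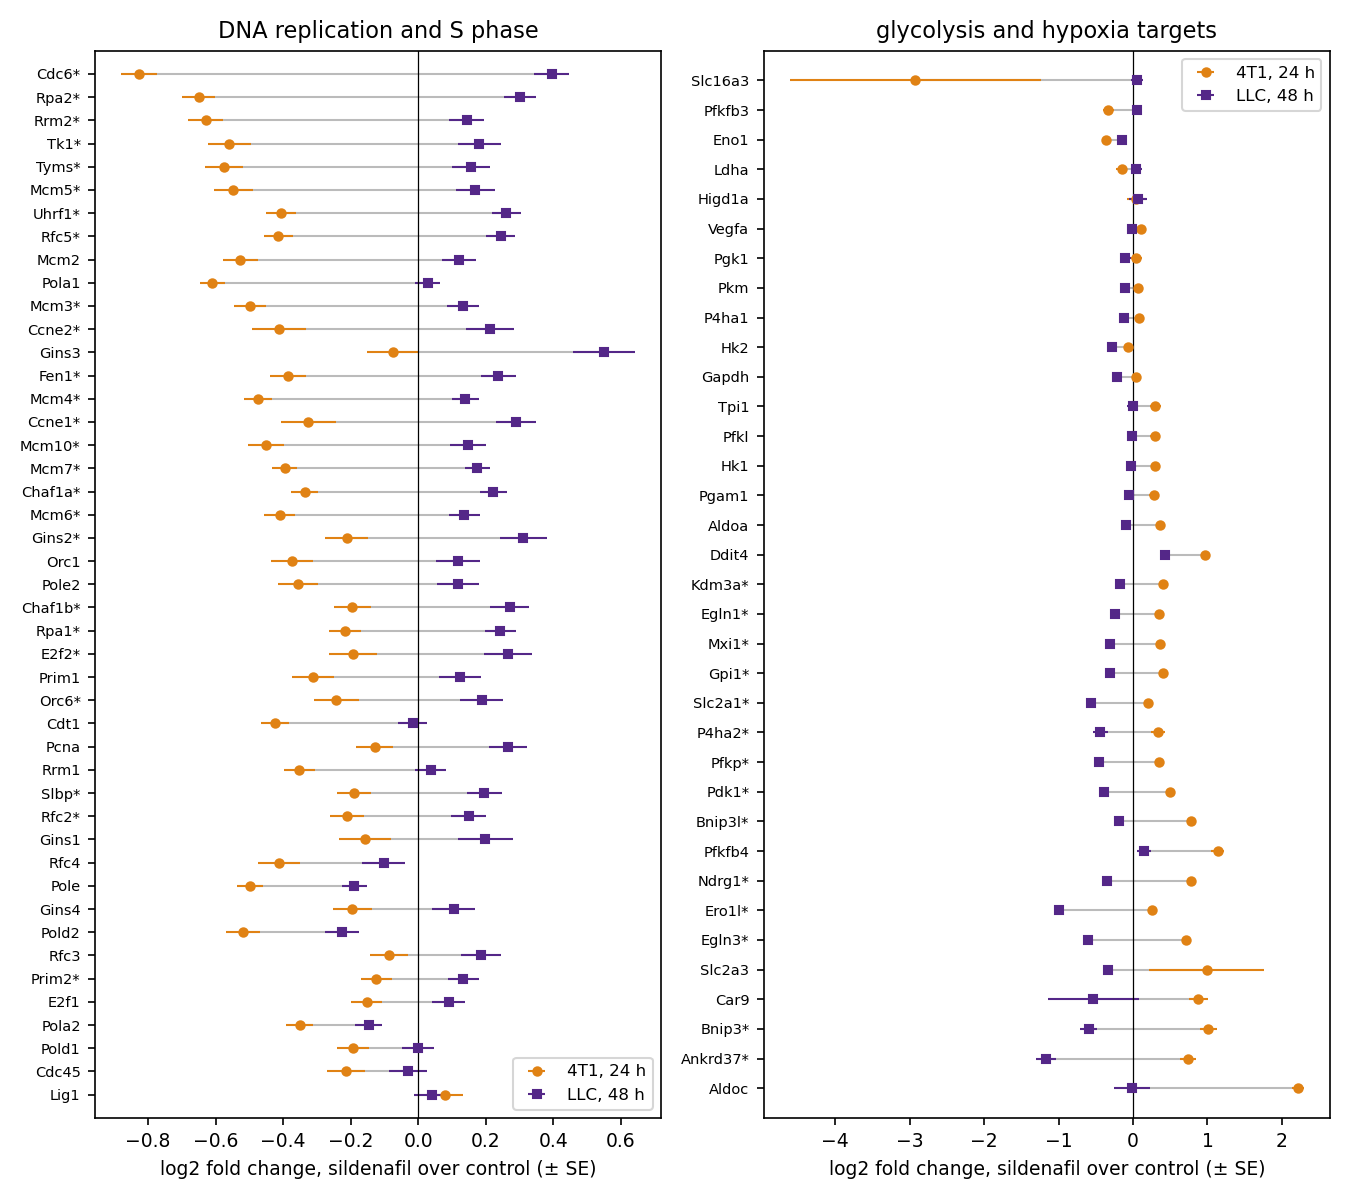
Log2 fold changes of sildenafil over control, with SE, for each tested member of the S phase list (45 of 46 genes shown) and of the glycolysis and hypoxia list (35 genes), in 4T1 at 24 h and LLC at 48 h, from 3 control and 3 sildenafil libraries a line. Asterisks mark the 25 and 14 members shown that moved in opposite directions, with LLC points above 0 and 4T1 points below 0 in the first list and the reverse in the second.

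Glycolysis and hypoxia targets had the reverse pattern. Of 35 tested members 25 had a lower response in LLC (20.2% of all genes) and 2 a higher one, Eno1 and Pfkfb3. In LLC 19 fell (15.5% of all genes) and 1, the growth inhibitor Ddit4, rose. In 4T1 23 rose (27.3% of all genes) and 2 fell. Opposite movement, down in LLC and up in 4T1, was called for 14 members, 40% of the list against 2.95% of all genes. The libraries of none of the 14 overlapped in either line, as for 398 of all 462 genes called this way. The call favours such a lack of overlap, so it is no added support. The list medians were -0.18 in LLC and 0.342 in 4T1.

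Bnip3 (chr7:138890836-138909519) and Bnip3l encode receptors that mark mitochondria for autophagy. Bnip3 went from 185, 197 and 231 CPM to 118, 143 and 145 CPM in LLC and from 86.7, 78.7 and 73.02 CPM to 166, 170.2 and 144 CPM in 4T1. All LLC controls lay above all 4T1 controls, while the treated libraries of the lines overlapped. The difference was -1.60 ± 0.159 (adjusted p = 1.87e-05). Bnip3l had responses of -0.19 ± 0.0554 in LLC and 0.78 ± 0.0537 in 4T1.

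The prolyl hydroxylases Egln1 and Egln3, which mark hypoxia-inducible factors for breakdown when oxygen is present, both moved in opposite directions. Egln3 went from 190.4, 187 and 165 CPM to 123, 118 and 117 CPM in LLC and from 92.5, 90.3 and 87.3 CPM to 145, 145 and 153 CPM in 4T1. Its difference was -1.31 ± 0.0714 (adjusted p = 1.75e-09), and that of Egln1 was -0.59 ± 0.0749. Slc2a1, the main glucose transporter, went from 128, 128 and 110.3 CPM to 81.3, 83.9 and 83.5 CPM in LLC and from 126, 121 and 125 CPM to 146, 144 and 138 CPM in 4T1. Its controls were at like levels in both lines, and the treated libraries lay on either side of them. Pdk1, the kinase that keeps pyruvate out of the citric acid cycle, had responses of -0.39 ± 0.0499 in LLC and 0.49 ± 0.0506 in 4T1.

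Of 14 glycolytic enzymes 10 had a lower response in LLC, 5 fell in LLC and 8 rose in 4T1, and the isomerase Gpi1 and the phosphofructokinase Pfkp moved in opposite directions. Pfkp had responses of -0.46 ± 0.0473 in LLC and 0.35 ± 0.0468 in 4T1, and Gpi1 -0.32 ± 0.0547 and 0.41 ± 0.0548. The lactate exporter Slc16a3 stood at 165 to 193 CPM in LLC and at 0 in 5 of the 6 libraries of 4T1, so its response could not be compared.

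Among the other hypoxia targets, 8 of 11 had a lower response in LLC and 6 moved in opposite directions: Ankrd37, Ero1l, Ndrg1, P4ha2, Mxi1 and Kdm3a. Ero1l, the oxidase that forms protein disulfides, changed more in LLC. It went from 358, 396 and 377 CPM to 180.2, 192 and 197 CPM in LLC and from 458, 435 and 414 CPM to 534, 536 and 486 CPM in 4T1. Ndrg1, a stress-induced gene, changed more in 4T1, and went from 131, 144 and 144 CPM to 108, 113 and 108 CPM in LLC and from 751, 737 and 714 CPM to 1265, 1252 and 1274 CPM in 4T1. Neither gene had overlapping groups, and the differences were -1.24 ± 0.0761 and -1.13 ± 0.0614. Ankrd37, a target of hypoxia-inducible factors, had the largest difference of the 14, -1.91 ± 0.1700, at levels of 1.49 to 4.14 CPM in LLC and 2.96 to 5.49 CPM in 4T1. Vegfa, the angiogenic growth factor, was not called in the difference (-0.12 ± 0.0683).

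All 14 members that moved in opposite directions rose in MC38, which was kept in the medium of LLC and treated as long as 4T1. MC38 is also a different line, and the part of line, medium and time was not tested. Of the 35 list members 31 rose there and 2 fell, with a median of 0.391. Leaving out any 1 of the 12 libraries left 13 or 14 members moving in opposite directions, and with the Gm26917 covariate there were 21. The difference of Bnip3 was -2.015 with that covariate and -1.5 without LLC control replicate 3.

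**Figure D4:**
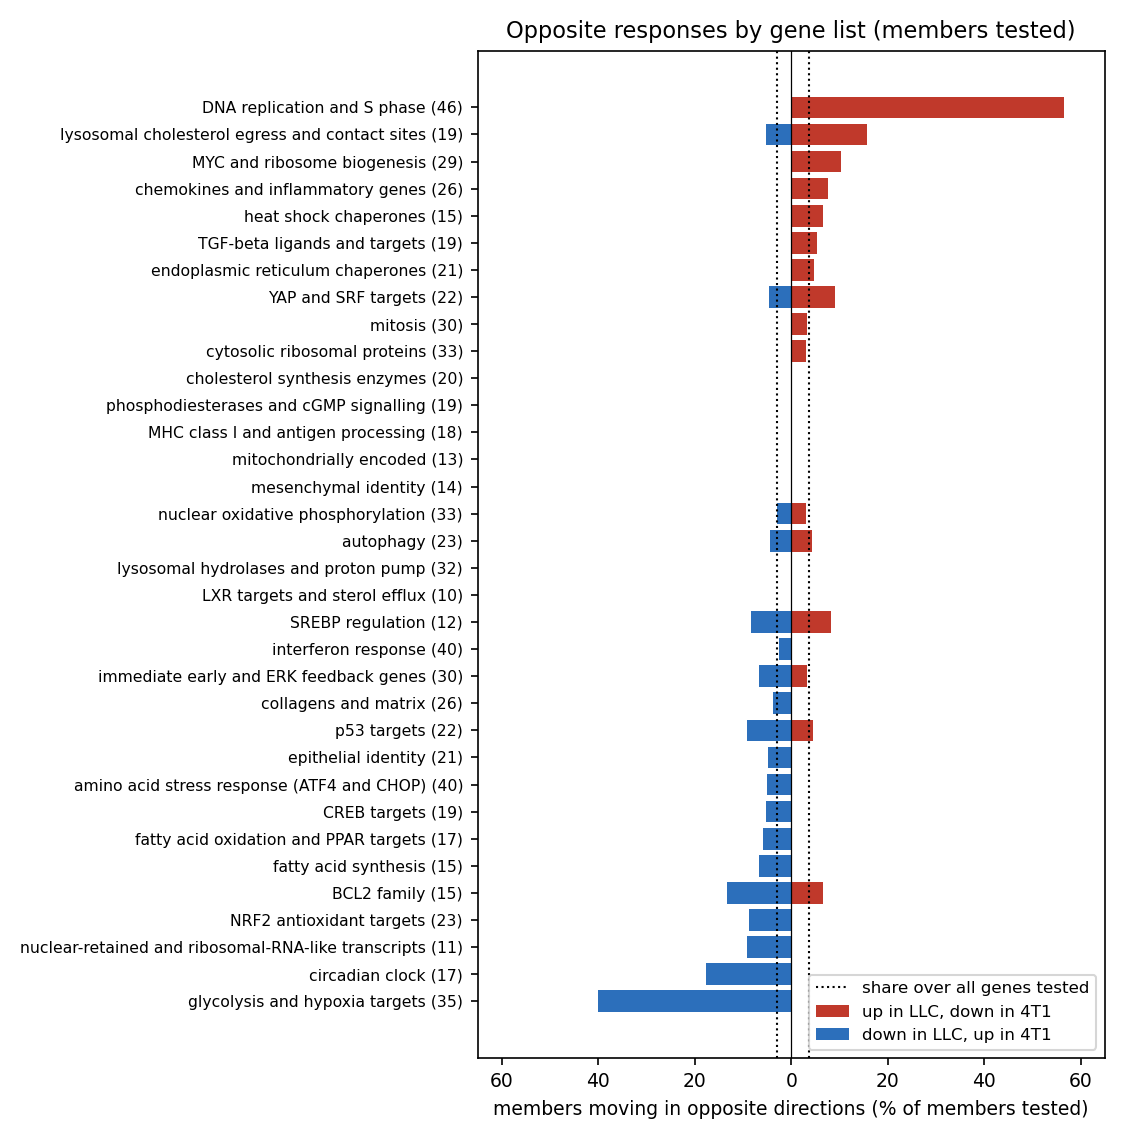
Share of the tested members of each gene list, in % of members, that moved in opposite directions (up in LLC and down in 4T1, or down in LLC and up in 4T1), with dotted lines at the share over all genes tested, 3.65% and 2.95%. DNA replication and S phase reaches 56.5% in the first direction and glycolysis and hypoxia targets 40% in the second.

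Ribosome building differed without a change of direction in most genes. All 29 tested genes of MYC and ribosome biogenesis had a higher response in LLC (21% of all genes) and all 29 fell in 4T1 (26.6%), with a median of -0.913. In LLC the median was -0.054, with 6 genes falling and 3 rising, where 15.5% of all genes fell and as many rose. The 3 that rose were Nop58, Tsr1 and Max. Nop58, a core protein of small nucleolar ribonucleoproteins, went from 189, 195 and 229 CPM to 226, 259 and 255 CPM in LLC and from 461, 479 and 481 CPM to 222, 224 and 214 CPM in 4T1. Its 4T1 groups lay far apart, and its LLC groups overlapped, with a difference of 1.38 ± 0.0908 (adjusted p = 1.86e-08). Nop2, an RNA methyltransferase of the nucleolus, went from 136, 138 and 139.9 CPM to 63.3, 63.5 and 63.2 CPM in 4T1 and was not called in LLC (0.09 ± 0.0476). The helicase Ddx21 had responses of -0.02 in LLC and -1.07 in 4T1, and Polr1b, a subunit of RNA polymerase I, -0.05 and -1.06.

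Myc itself fell in both lines and more in 4T1. It went from 435, 398 and 335 CPM to 284, 258 and 278 CPM in LLC and from 633, 641 and 654 CPM to 275, 277 and 272 CPM in 4T1. The groups did not overlap, and the difference was 0.72 ± 0.0987 (adjusted p = 3.65e-05). In MC38 26 of the 29 list members fell and none rose, with a median of -0.281. Of the 4 genes named for the largest higher response in LLC among those not yet named, Ccdc137, the small nucleolar host gene Snhg15 and the tRNA methyltransferase gene Trmt61a had differences of 1.65 ± 0.109, 1.57 ± 0.113 and 1.503 ± 0.121, with LLC responses of 0.19, 0.12 and 0.17. The fourth, the p53-induced nuclease gene Aen, went from 46.2, 45.9 and 54.2 CPM to 55.1, 58.7 and 56.4 CPM in LLC and from 52.6, 51.5 and 52.1 CPM to 22.9, 21.9 and 21.2 CPM in 4T1. It moved in opposite directions, with a difference of 1.46 ± 0.0824.

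Cholesterol synthesis differed in size and not in direction. All 20 enzymes rose in both lines, with medians of 0.797 in LLC and 1.986 in 4T1, and 19 had a lower response in LLC (20.2% of all genes). The exception was the sterol isomerase Ebp, which rose by 0.53 ± 0.0695 in LLC and 0.15 ± 0.0612 in 4T1. Hmgcs1, an early enzyme of the pathway, went from 119, 129 and 135 CPM to 255, 291 and 289.7 CPM in LLC and from 47.8, 45.6 and 44.4 CPM to 295, 301 and 312 CPM in 4T1. The groups of a line lay apart in both cases, and the difference was -1.59 ± 0.0799 (adjusted p = 7.76e-10). For the mevalonate decarboxylase Mvd it was -2.09 ± 0.0821.

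Insig1 (chr5:28071363-28078662), which holds SREBP in the endoplasmic reticulum and is itself an SREBP target, went from 169.6, 171 and 185 CPM to 335, 359 and 364 CPM in LLC and from 46.1, 44.04 and 44.9 CPM to 441, 431 and 445 CPM in 4T1. The control level was higher in LLC and the treated level higher in 4T1, with a difference of -2.28 ± 0.0629 (adjusted p = 1.56e-12). Srebf2, which encodes the factor of the cholesterol enzymes, went from 163, 163 and 164 CPM to 318, 316 and 322 CPM in 4T1 and was not called in LLC (0.01 ± 0.0918). Its difference was -0.95 ± 0.128, and -0.5185 with the Gm26917 covariate. Srebf1 responses were 0.26 in LLC and 0.27 in 4T1, and the difference was not called (-0.01 ± 0.05700). Scap, the escort of SREBP, moved in opposite directions, from 94.7, 92.7 and 88.1 CPM to 108, 115 and 115 CPM in LLC and from 125, 123 and 128 CPM to 109, 107 and 107 CPM in 4T1. Its difference was 0.51 ± 0.0563.

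Lpin1 (chr12:16535669-16610966), a phosphatidate phosphatase and a known SREBP target, had the largest difference among the genes named by rank. It went from 54.4, 60.8 and 53.1 CPM to 52.03, 48.4 and 44.1 CPM in LLC and from 9.78, 9.24 and 9.27 CPM to 54.3, 54.1 and 60.3 CPM in 4T1. The 4T1 controls lay far below all LLC libraries and the treated 4T1 libraries did not, with a difference of -2.79 ± 0.0978 (adjusted p = 1.61e-11). In MC38 Lpin1 rose by 2.09. Fatty acid synthesis genes had a lower response in LLC in 12 of 15 cases (20.2% of all genes) and a higher one in 1, Elovl1 (21%), with medians of 0.351 and 0.887. The stearoyl desaturase Scd1 had responses of 0.31 ± 0.04102 in LLC and 1.57 ± 0.0423 in 4T1. Me1, the malic enzyme that supplies NADPH, was the member that moved in opposite directions (-0.37 and 0.43).

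Genes of cholesterol export from lysosomes were mixed. Npc1, the membrane transporter, rose by 0.21 ± 0.0706 in LLC and 0.39 ± 0.0674 in 4T1, and the difference was not called (-0.18 ± 0.0976, adjusted p = 0.166). Its soluble partner Npc2 went from 122, 118 and 132 CPM to 172, 181 and 174 CPM in LLC and from 209, 209 and 209 CPM to 478, 476 and 451 CPM in 4T1. It rose in both lines without overlap, with a difference of -0.66 ± 0.0616. Of 19 list members 4 moved in opposite directions, 21.1% against 6.6% of all genes. Soat1, which esterifies cholesterol (0.61 ± 0.0643), and the membrane contact protein Vapb (0.55 ± 0.0809) were up in LLC and down in 4T1. So was the lysosomal membrane protein Scarb2 (0.44 ± 0.0513), and the oxysterol-binding protein Osbp (-0.52 ± 0.0772) was the reverse. Lysosomal hydrolases and proton pump genes had a lower response in LLC in 25 of 32 cases (20.2% of all genes) and a higher one in 3 (21%), with medians of 0.181 in LLC and 0.515 in 4T1, and none moved in opposite directions.

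Abca1, the cholesterol exporter, went from 5.804, 5.67 and 5.92 CPM to 13.7, 12.2 and 13.3 CPM in LLC. In 4T1 it stood at 0.0367 to 0.189 CPM, so the difference of 2.04 ± 0.503 rests on few reads there. Abcg1, a related exporter, was listed at 0 in all 6 LLC libraries, and went from 3.199, 2.59 and 2.29 CPM to 1.01, 0.748 and 0.991 CPM in 4T1. Pde5a, the target of sildenafil, went from 4.43, 4.04 and 4.31 CPM to 4.26, 4.35 and 4.503 CPM in LLC, with no call, and from 0.422, 0.3300 and 0.5204 CPM to 0.826, 0.837 and 0.766 CPM in 4T1. The 4T1 response was called and so was the difference of -0.91 ± 0.232 (adjusted p = 0.00436), but with all 4T1 libraries under 1 CPM both rest on few reads. Of 19 tested phosphodiesterase and cGMP genes 6 had a lower response in LLC and 2 a higher one, a called share of 42.1% that is near the 41.2% of all genes, and 8 were under 1 CPM in 4T1. Pde4b, which degrades cAMP, rose in both lines, by 1.36 ± 0.0721 in LLC and 0.92 ± 0.0734 in 4T1.

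Interferon-response genes rose broadly in 4T1 and in part in LLC. All 40 tested rose in 4T1 (27.3% of all genes), with a median of 2.432. In LLC 13 rose and 1 fell, with a median of 0.584, where 15.5% of all genes rose and as many fell. The response was lower in LLC for 27 (20.2% of all genes) and higher for none. In LLC 20 of the 40 were under 1 CPM, so their fold changes rest on few reads, and of the 11 members with at least 5 CPM in both lines 10 had a lower response in LLC. Ifit2, an antiviral RNA-binding protein, went from 42.1, 40.4 and 43.2 CPM to 43.9, 41.97 and 42.5 CPM in LLC and from 26.6, 24.4 and 24.8 CPM to 103, 107 and 95.04 CPM in 4T1. The LLC groups overlapped and the 4T1 groups did not, with a difference of -1.98 ± 0.0739 (adjusted p = 2.87e-11). Stat2, which carries the signal of the interferon receptor, went from 9.01, 8.66 and 7.97 CPM to 10.2, 9.27 and 11.9 CPM in LLC and from 17.6, 13.97 and 13.4 CPM to 87.5, 89.8 and 82.5 CPM in 4T1. Isg20, an exonuclease, was the member that moved in opposite directions, with responses of -0.32 ± 0.0975 in LLC and 0.57 ± 0.0653 in 4T1.

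Of the 18 MHC class I and antigen processing genes all rose in 4T1, 9 rose in LLC (15.5% of all genes), and 11 had a lower response in LLC (20.2%). B2m, the light chain of MHC class I, went from 168, 169 and 186 CPM to 190.3, 177 and 191 CPM in LLC and from 459, 454 and 467 CPM to 776, 755 and 693 CPM in 4T1. Its 4T1 groups lay far apart, and its LLC response was 0.09 ± 0.0515. The peptide transporter gene Tap1 had responses of 0.20 ± 0.121 in LLC and 1.49 ± 0.0786 in 4T1. The summed level of 24 leukocyte markers moved with these genes: it was 40.68 to 42.7 CPM in 4T1 controls and 91.05 to 97.83 CPM after sildenafil, against 8.472 to 9.027 CPM and 9.945 to 12 CPM in LLC. Cd68, Cd74 and Cd14 made up most of the 4T1 sum, and Ptprc was near 0. The part of these markers in the interferon result was not tested.

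**Figure D5:**
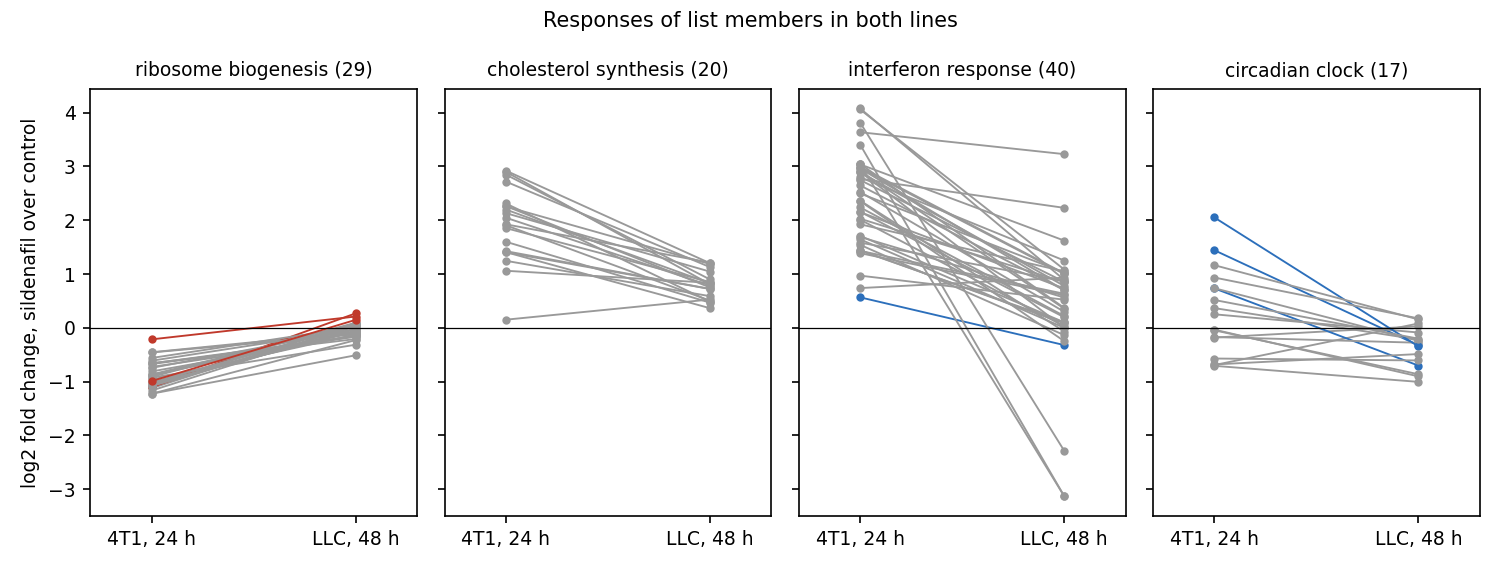
Log2 fold change of sildenafil over control in 4T1 (24 h) and LLC (48 h), with a line joining the 2 values of each tested member of 4 lists: ribosome biogenesis (29), cholesterol synthesis (20), interferon response (40) and circadian clock (17), from 3 control and 3 sildenafil libraries a line. Coloured lines are members that moved in opposite directions, all 29 ribosome biogenesis lines go up from 4T1 to LLC, and 19 of the 20 cholesterol lines go down while staying above 0.

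Clock genes had a lower response in LLC in 11 of 17 cases, against 20.2% of all genes, and a higher one in 2, Arntl and Clock, against 21%. Dbp, Per1 and Per3 moved in opposite directions, down in LLC and up in 4T1, as 2.95% of all genes did. Dbp, an output factor of the clock, went from 34.7, 35.8 and 37.3 CPM to 30.7, 26.8 and 27.2 CPM in LLC and from 5.81, 5.34 and 4.87 CPM to 22.3, 21.7 and 22.7 CPM in 4T1. The groups did not overlap, and the difference was -2.40 ± 0.0948 (adjusted p = 3.57e-11). Per1, a repressor within the clock loop, went from 32.6, 33.2 and 22.8 CPM to 21.2, 18.04 and 15.2 CPM in LLC and from 15.97, 15.1 and 15.8 CPM to 25.97, 24.4 and 27.6 CPM in 4T1. LLC control replicate 3 was the lowest Per1 control, and without it the difference was -1.591 in place of -1.44 ± 0.202. Arntl, an activator of the loop, fell in 4T1 (-0.69 ± 0.0533) and was not called in LLC (0.08 ± 0.0675). The labels give no hour of harvest.

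Of 40 genes of the amino acid stress response driven by ATF4 and CHOP, 30 fell and 2 rose in LLC, where 15.5% of all genes fell and as many rose. In 4T1 25 fell and 5 rose, against 26.6% and 27.3% of all genes. The response was lower in LLC for 11 and higher for 10, against 20.2% and 21% of all genes. The members that moved in opposite directions were Ddit3, which encodes CHOP, and Atf3, 5% of the list and near the 6.6% of all genes. Ddit3 went from 100.0, 85.8 and 86.7 CPM to 64.7, 59.9 and 57.5 CPM in LLC and from 73.1, 70.5 and 75.7 CPM to 111, 111 and 106 CPM in 4T1. The groups did not overlap, and the difference was -1.16 ± 0.0821 (adjusted p = 2.07e-08). Atf3 had responses of -0.74 ± 0.132 in LLC and 0.38 ± 0.0905 in 4T1, and both genes rose in MC38, where 24 of 37 list members rose. The cystine transporter Slc7a11 fell more in LLC (-0.87) than in 4T1 (-0.21), and the glutamine transporter Slc1a5 fell more in 4T1 (-0.74) than in LLC (-0.24).

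Single genes of growth arrest and cell death also moved in opposite directions. Cdkn1a, which encodes the cell cycle inhibitor p21, went from 12.9, 11.4 and 9.300 CPM to 5.43, 5.46 and 5.31 CPM in LLC and from 18.4, 18.7 and 18.9 CPM to 24.1, 23.5 and 23.4 CPM in 4T1. The groups did not overlap, the difference was -1.39 ± 0.124 (adjusted p = 2.31e-07), and in MC38 Cdkn1a rose by 1.21. Bbc3, which encodes the death factor PUMA, had responses of -0.43 in LLC and 0.42 in 4T1, and Bcl2l1, which encodes the survival factor BCL-XL, 0.20 and -0.35. Trp53 went from 145, 148 and 150.2 CPM to 74.2, 74.2 and 85.99 CPM in 4T1 and was not called in LLC (0.10 ± 0.0942). Of the 22 p53 targets tested 6 had a lower response in LLC and 4 a higher one, which is near the 20.2% and 21% of all genes. Opposite movement was called for 13.6% of the 22 and for 20% of 15 BCL2 family genes, against 6.6% of all genes. Among 23 targets of the antioxidant factor NRF2 12 had a lower response in LLC (20.2% of all genes) and none a higher one (21%). The quinone reductase Nqo1 (-0.39 in LLC, 0.68 in 4T1) and the NADPH-forming G6pdx (-0.13 and 0.49) moved in opposite directions. That is 8.7% of the list, near the 6.6% of all genes.

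The lists of signalling targets held differences of both signs. Of 22 YAP and SRF targets 9 had a higher response in LLC (21% of all genes) and 5 a lower one, near the 20.2% of all genes. Besides Amotl2, the YAP kinase gene Lats2 was up in LLC and down in 4T1 (0.28 and -0.13), and the focal adhesion gene Vcl was the reverse (-0.38 and 0.20). With these, 13.6% of the list moved in opposite directions, against 6.6% of all genes. Of 30 immediate early and ERK feedback genes 10 had a higher response in LLC (21% of all genes) and 6 a lower one, near the 20.2% of all genes. Ier2 rose in LLC (0.39 ± 0.0709) and fell in 4T1 (-0.58 ± 0.0577), and the ERK phosphatase Dusp4 did the reverse (-0.23 ± 0.0526 and 0.62 ± 0.0518). Of the 30 members, 10% moved in opposite directions, against 6.6% of all genes. Among 26 chemokine and inflammatory genes Csf1, the macrophage growth factor, and Ptgs2, which encodes the prostaglandin enzyme COX-2, moved in opposite directions. That is 7.69% of the list, near the 6.6% of all genes. Csf1 went from 36.4, 41.5 and 40.2 CPM to 43.7, 50.7 and 50.5 CPM in LLC and from 484, 477 and 480.1 CPM to 294, 301 and 296 CPM in 4T1, and its difference was 0.99 ± 0.0775. In autophagy, 10 of 23 genes had a lower response in LLC (20.2% of all genes) and 3 a higher one (21%). Atg5 was up in LLC and down in 4T1 and Atg13 the reverse, which is 8.7% of the list, near the 6.6% of all genes.

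Of the 13 mitochondrially encoded messages none was called in the difference, while the mitochondrial ribosomal RNA mt-Rnr1 was. It went from 940.0, 612 and 239 CPM to 308, 238 and 269 CPM in LLC and from 42.2, 32.97 and 33.3 CPM to 95.9, 95.4 and 85.99 CPM in 4T1. The LLC groups overlapped, and the control libraries alone spanned a wide range. Its difference of -2.49 ± 0.589 (adjusted p = 0.00892) was not called with the Gm26917 covariate (-0.785, adjusted p = 0.3804). Olfm1, a secreted olfactomedin, had a difference of like size, -2.52 ± 0.0877, on tighter values: it went from 29.1, 26.3 and 28.04 CPM to 20.7, 19.2 and 19.4 CPM in LLC and from 25.9, 22.3 and 22.3 CPM to 93.5, 94.4 and 99.2 CPM in 4T1.

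Most genes that moved in opposite directions were in none of the lists: 47 of the 573 and 38 of the 462 were members of one. Genes down in LLC and up in 4T1 had a median exon length of 5699 bases, against 4132 in the other direction and 3815 over all genes tested. Over the 9094 genes with at least 5 CPM in both lines the median was 4743, above that of the genes up in LLC and down in 4T1. The control level was higher in LLC for 288 of the 462, for 192 of the 573 and for 7852 of the 15686 genes tested. Gene length and control level moved with the direction, and their part in it was not tested.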

How the data were processed

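RNA of cultured 4T1, LLC and MC38 cells was sequenced as paired-end reads from a stranded mRNA kit, per the labels' protocols. The submitters' processing notes name the build mm10 and the tools RSEM 1.3.1, STAR 2.7.0f, cutadapt 1.18 and bcl2fastq 2.17. Which annotation and strand option they used is not given in the sources used here. The authors deposited RSEM expected counts per gene, which were rounded to whole numbers. Gene identifiers matched GENCODE M21 for all 55450 genes, of which 217 share a symbol, and lists use the one with the highest mean level.

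The 12 LLC and 4T1 libraries were fitted together in edgeR 4.0.16 (R 4.3.3) with filterByExpr, TMM factors, 1 coefficient per group and robust quasi-likelihood F tests on 8 residual degrees of freedom. P-values were adjusted by Benjamini and Hochberg over all 15686 genes, and a call is an adjusted p under 0.05. A gene moved in opposite directions where the difference and both responses were called and the responses had opposite signs. Each SE was taken as the absolute log2 fold change over the root of its F statistic. MC38 was fitted on its own 6 libraries. CPM are counts scaled by the TMM library size.

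Per direction the text names the 10 opposite genes with the largest smaller response of the 2 lines (at least 5 CPM in both, no overlap of libraries, no predicted name), the 4 not yet named with the largest difference, up to 4 members of each list with the smallest adjusted p of the difference, and a fixed set (Pde5a, Npc1, Npc2, Hmgcs1, Insig1, Srebf1, Srebf2, Abca1, Abcg1, Myc, Ddit3 and Gm26917). Results for a few genes are not reported here. Other members named as examples were chosen after their values were seen. The comparison, the members and the 39 gene lists were chosen with earlier results of these data known. The script was tested on simulated data. Alternatives were RLE factors, library totals, protein-coding genes alone, other filters, unrounded counts, DESeq2 1.42.0, limma-voom (limma 3.58.1), all 18 libraries, calls from each line's own fit, a replicate block, the Gm26917 covariate, minimum fold changes and leaving out each library. Figures were drawn with matplotlib 3.10.9.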

Additional observations from a re-analysis of the deposited data

Results flagged for a closer look

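Of the results reported, 37 single genes had a response that differed between the lines by the test of the difference itself, and each is given here as the log2 response in LLC minus that in 4T1.

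Among genes up in LLC and down in 4T1 the differences were 1.65 for Arf2, 1.35 for Gpr155, 1.69 for Amotl2, 1.40 for Tsr2, 1.12 for Sh3bp5, 0.97 for Dnajc25, 0.97 for Slc35b1, 0.95 for Cdc42ep1, 1.11 for Miga2, 1.08 for Pdrg1 and 1.46 for Aen. Among genes down in LLC and up in 4T1 they were -2.49 for Unc13a, -1.68 for Plcg2, -2.13 for Slc5a3, -1.82 for Galnt15, -1.44 for Per1, -1.47 for Fyco1, -1.34 for Kif21b, -1.44 for Map1a, -1.31 for Egln3, -1.60 for Bnip3, -2.79 for Lpin1, -2.52 for Olfm1, -2.40 for Dbp and -1.16 for Ddit3.

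Genes that rose in both lines and less in LLC had differences of -2.28 for Insig1, -1.59 for Hmgcs1 and -0.66 for Npc2. Myc fell in both lines and less in LLC, with a difference of 0.72. Genes called in 4T1 and not in LLC had differences of 1.65 for Ccdc137, 1.57 for Snhg15, 1.503 for Trmt61a, -0.95 for Srebf2, -2.49 for mt-Rnr1 and, on 4T1 levels under 1 CPM, -0.91 for Pde5a. Abca1, called in LLC alone, had 2.04, on 4T1 levels under 1 CPM. Gm26917, called in neither line, had -1.86, with LLC controls of 31380.0, 22055 and 10281 CPM and LLC sildenafil libraries of 14403, 7459 and 6079.7 CPM.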

How the results depend on the processing

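Depth was lower in LLC than in 4T1, and responses of genes under 1 CPM in a line rest on few reads. The genes called in the difference numbered 6438 with RLE factors, 6379 with library totals, 6226 on protein-coding genes alone, 6446 with DESeq2, 6543 with limma-voom, 6109 without a filter, 6073 with a minimum of 5 CPM, 6739 with all 18 libraries and 4531 with the Gm26917 covariate, against 6460. With library totals 43.9% of the calls were higher in LLC, against 51.1%, and the median difference of all genes was -0.09 in place of -0.036.

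With the Gm26917 covariate 2444 genes were higher and 2087 lower in LLC, 225 and 224 genes moved in opposite directions (187 and 181 of them shared with the main result), 8 S phase genes did, and the cause was not tested. A minimum difference of 2-fold left 982 calls, 227 higher and 755 lower in LLC, and a minimum of 1.5-fold in both lines left 12 and 67 genes moving in opposite directions, as fewer genes meet a stricter rule.

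Leaving out each library in turn gave 5840 to 7169 calls, 2938 to 3670 higher and 2803 to 3499 lower in LLC. Genes up in LLC and down in 4T1 numbered 369 (without LLC sildenafil replicate 3) to 907 (without LLC control replicate 3), and the reverse 292 to 670 in the same settings, with 303 without LLC sildenafil replicate 2. S phase genes moving in opposite directions numbered 13 to 32, with 15 without LLC control replicate 1, control replicate 2 or sildenafil replicate 2. The ranges were 43 to 45 for S phase genes higher in LLC, 13 to 14 and 23 to 26 for glycolysis and hypoxia genes moving in opposite directions and lower in LLC, and 23 to 27 for interferon genes lower in LLC.

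Uncalled differences changed sign for Npc1 with the covariate (0.0124) and for Srebf1 with the covariate (0.07284) and without 4T1 sildenafil replicate 3 (0.001239), LLC control replicate 1 (0.002905), LLC control replicate 3 (0.003594), LLC sildenafil replicate 2 (0.008888) or LLC sildenafil replicate 3 (0.02987), with a lowest value of -0.04586. With a replicate block 6491 genes were called and 586 and 497 moved in opposite directions. Same-numbered libraries did not deviate together, with correlations of 0.059, 0.052 and -0.025 in 4T1 and 0.078, -0.019 and 0.084 in LLC, so the numbers were not taken as pairs.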
